A study of Homo sapiens with 9 samples.

Results

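The 10 genes described here encode proteins with known antiviral roles: the dynamin-like GTPases MX1 and MX2, the interferon-induced transmembrane proteins IFITM1, IFITM2 and IFITM3, the radical enzyme RSAD2 (viperin) and its neighbour CMPK2, the paralogs SAMD9 and SAMD9L, and the membrane tether BST2 (tetherin). They are a fixed list of gene symbols, drawn up with earlier results of these data known, and all 10 were found once among the 16222 genes in the deposited tables of read counts and FPKM. The cells were THP-1, a human monocytic leukaemia line, labelled wild type and first given PMA, a phorbol ester that makes these cells adhere and take on macrophage features. The 3 groups were cells then given LPS and ABS together (LPS_ABS), LPS alone (LPS), or PBS (ctrl), with 3 libraries each. LPS, lipopolysaccharide, is a component of Gram-negative bacteria that macrophages sense. The labels do not spell out ABS, the series title speaks of apoptotic bodies, and neither doses nor times are given in those sources. The line stands in for macrophages only as a PMA-treated leukaemia line can, and no label says that the libraries of a group came from separate cultures, so the spread between them may be technical.

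These effectors are made when a cell senses an interferon or, for some, a microbe directly. Type I interferons bind their receptor, the kinases JAK1 and TYK2 act on STAT proteins, and the factor ISGF3, which holds STAT2 and IRF9, binds the interferon-stimulated response element (ISRE) in promoters. In macrophages LPS engages TLR4, which can lead through IRF3 to interferon beta, so that LPS is known to induce many of the same genes. The proteins then act at successive steps of infection: IFITM proteins at membrane fusion, MX proteins on incoming viral cores, RSAD2 with CMPK2 on the nucleotides used for viral RNA, SAMD9 and SAMD9L on translation, and BST2 on the release of budding particles.

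With LPS 9 of the 10 effectors rose, and with ABS added 6 of these were lower than with LPS alone. Against ctrl, LPS cells were higher in MX1, MX2, IFITM1, IFITM3, RSAD2, CMPK2, SAMD9, SAMD9L and BST2, with log2 fold changes between 0.53 and 2.26, at an edgeR adjusted p under 0.05. Among all 12970 genes tested, 14.9% passed that threshold and 7.71% passed it as higher, and since the list was drawn up with earlier results known, its count beside these shares is a description. In LPS_ABS against LPS, 6 effectors fell (RSAD2, SAMD9L, SAMD9, MX2, MX1 and IFITM1), 0 rose and 4 did not pass the test, in a comparison in which 35.6% of all genes passed and 18.8% fell. In LPS_ABS against ctrl, 4 effectors were higher (MX1, IFITM1, IFITM3 and MX2) and 0 lower, where 33.8% of all genes passed and 14.8% were higher. The median log2 fold change of the 10 was -0.82 in LPS_ABS against LPS (0.02 over all genes tested), 0.46 in LPS_ABS against ctrl (0.05 over all) and 1.28 in LPS against ctrl (-0.03 over all). The 3 comparisons share libraries and are not independent of each other. The LPS_ABS libraries also differed from the others in base composition, as described below. With that trend taken out, 8 effectors fell in LPS_ABS against LPS, where 9.65% of all genes passed and 4.52% fell. Against ctrl 3 effectors were then higher in LPS_ABS, where 13.4% of all genes passed and 8.07% were higher.

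**Figure D1:**
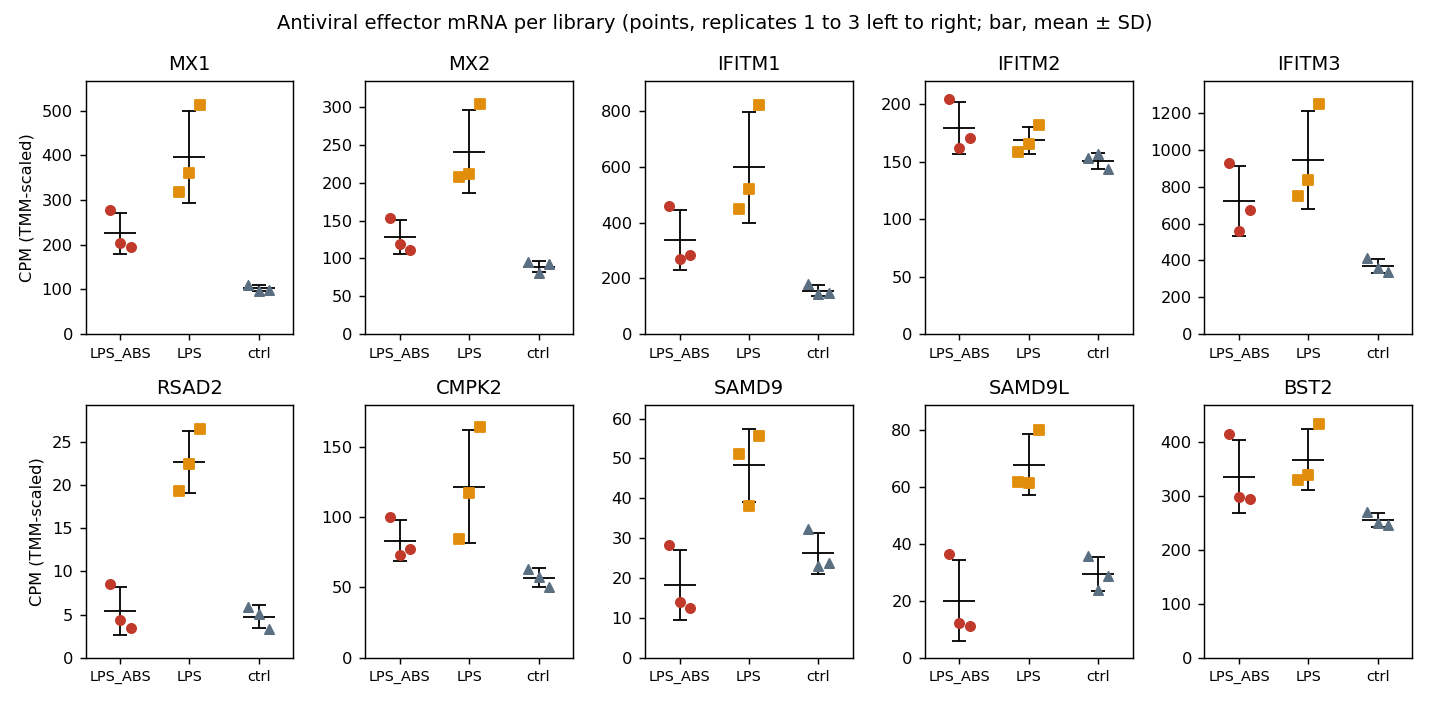
Levels of the 10 antiviral effectors in each library, as CPM (counts scaled to a common library size by TMM), with LPS_ABS left, LPS in the middle and ctrl right; points are replicates 1 to 3 from left to right, and the bar is the mean ± SD over 3 libraries. The 3 LPS libraries lie above the 3 ctrl libraries in every panel, and the LPS_ABS libraries lie wholly below the LPS libraries for MX1, MX2, RSAD2, SAMD9 and SAMD9L.

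The genes lie in neighbouring groups. In the RefSeq order (GRCh38.p14), MX2 and MX1 are adjacent on chromosome 21, IFITM2, IFITM1 and IFITM3 follow each other on chromosome 11, CMPK2 and RSAD2 are adjacent on chromosome 2, and SAMD9 and SAMD9L are adjacent on chromosome 7. BST2 stands on chromosome 19 between CCDC194 and MVB12A. Promoter windows from 250 bases before to 50 bases after an annotated start were available from RefSeq (GRCh38.p14) for 8 of the 10 genes, 13 windows in all, since MX1 and CMPK2 have 3 starts each and RSAD2 has 2. The windows of MX2 and IFITM2 were not used here. The windows were searched on both strands for the ISRE-type core GAAANNGAAA, for the same repeat with a spacer 1 base long (GAAANGAAA), and for the GAS-type motif TTCNNNGAA, all chosen with these sequences in view. The first was found in 7 of the 13 windows and 3.57% of all 35116 windows in the table, the second in 5 windows and 3.12% of all, and the third in 3 windows and 7.66% of all. Either of the first 2 was present in 10 of 13 windows, in 7 of the 8 genes, and in 6.4% of all windows. A match is a description of letters and not a measured binding site, and which start these cells used was not measured.

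The 160 bases before the start are shown for 8 windows, 1 per gene, because 7 of them hold these repeats and that of SAMD9L does not; matches of the first 2 motifs on either strand are in capitals.
IFITM1, chr11:313880-314039, plus strand: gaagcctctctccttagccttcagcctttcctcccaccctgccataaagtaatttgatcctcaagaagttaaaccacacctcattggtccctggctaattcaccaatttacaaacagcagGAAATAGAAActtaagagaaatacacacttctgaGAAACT
IFITM3, chr11:320861-321020, minus strand: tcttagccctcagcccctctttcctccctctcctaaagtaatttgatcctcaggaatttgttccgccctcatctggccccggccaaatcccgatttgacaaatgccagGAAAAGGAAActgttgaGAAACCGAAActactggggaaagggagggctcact
MX1 start 2, chr21:41426079-41426238, plus strand: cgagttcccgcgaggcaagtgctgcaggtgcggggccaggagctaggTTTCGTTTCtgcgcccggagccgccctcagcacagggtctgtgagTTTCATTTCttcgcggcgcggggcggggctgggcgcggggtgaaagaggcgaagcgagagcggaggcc
RSAD2 start 1, chr2:6865725-6865884, plus strand: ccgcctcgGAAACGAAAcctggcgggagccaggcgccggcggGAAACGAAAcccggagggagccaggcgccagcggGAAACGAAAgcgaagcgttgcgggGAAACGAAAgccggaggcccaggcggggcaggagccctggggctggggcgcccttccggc
CMPK2 start 1, chr2:6865820-6865979, minus strand: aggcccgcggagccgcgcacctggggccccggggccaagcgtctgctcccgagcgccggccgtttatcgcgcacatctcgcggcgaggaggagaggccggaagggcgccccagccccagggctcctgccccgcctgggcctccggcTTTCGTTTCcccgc
SAMD9, chr7:93117980-93118139, minus strand: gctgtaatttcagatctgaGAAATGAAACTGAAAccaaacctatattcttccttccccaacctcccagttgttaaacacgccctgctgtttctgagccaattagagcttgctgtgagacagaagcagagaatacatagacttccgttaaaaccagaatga
SAMD9L, chr7:93148386-93148545, minus strand: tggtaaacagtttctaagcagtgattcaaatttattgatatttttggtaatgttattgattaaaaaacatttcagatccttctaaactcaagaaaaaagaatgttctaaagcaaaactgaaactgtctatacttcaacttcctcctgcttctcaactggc
BST2, chr19:17405631-17405790, minus strand: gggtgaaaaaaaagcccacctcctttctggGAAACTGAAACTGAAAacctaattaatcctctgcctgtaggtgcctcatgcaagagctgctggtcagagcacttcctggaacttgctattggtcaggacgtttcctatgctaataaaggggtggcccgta

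RSAD2 start 1 held 4 copies of the repeat with the short spacer, at positions -152 to -144, -118 to -110, -84 to -76 and -60 to -52 counted from the start. IFITM1 and IFITM3 each held an ISRE-type match close to the start, at -40 to -31 in IFITM1 and at -35 to -26 in IFITM3. The second IFITM1 match, at -6 to 4, runs past the start, so that its last bases lie outside the printed stretch. In BST2 both ISRE-type matches overlap each other (-130 to -121 and -124 to -115), and in SAMD9 the ISRE-type match at -136 to -127 overlaps the short-spacer match at -141 to -133. SAMD9L had no match of any of the 3 motifs in its window. The windows of RSAD2 start 1 and CMPK2 start 1 face in opposite directions and share 165 bases, so that the match at -14 to -6 in the CMPK2 window is the same stretch as the fourth match of the RSAD2 window read on the other strand.

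**Figure D2:**
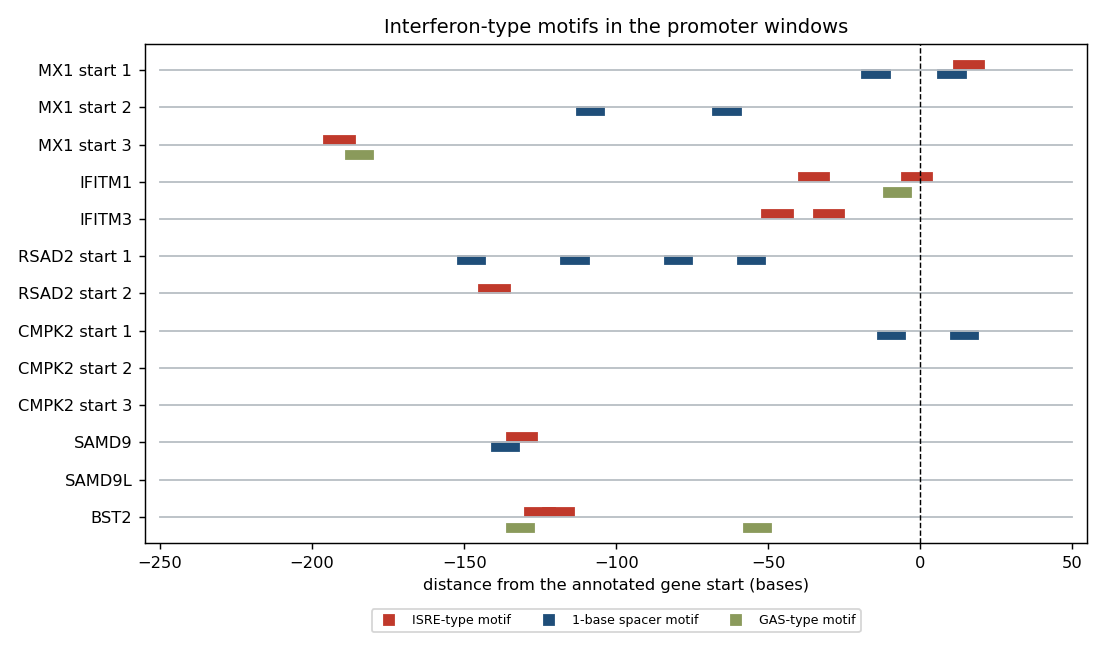
Positions of the ISRE-type motif (GAAANNGAAA, red), the repeat with a spacer 1 base long (GAAANGAAA, blue) and the GAS-type motif (TTCNNNGAA, green) in 13 RefSeq promoter windows of 8 effectors, with distance from the annotated start in bases on the horizontal axis and the start as a dashed line. In 10 of the 13 windows at least 1 red or blue match is drawn, and SAMD9L has none.

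The levels of these effectors differed widely per unit of transcript length. In LPS cells IFITM3 reached 1569 ± 405 FPKM (counts scaled by transcript length and library total, mean ± SD, n = 3), which ranked 45 of the 16222 genes, and IFITM1 reached 906 ± 278 FPKM (rank 75). BST2 (372 ± 49.2 FPKM) and IFITM2 (170.4 ± 7.98 FPKM) followed. MX1 (68.9 ± 16.2 FPKM) and MX2 (65.1 ± 13.3 FPKM) did not differ beyond their spread, and CMPK2 stood at 31.3 ± 9.58 FPKM. SAMD9L (9.59 ± 1.31 FPKM), SAMD9 (7.21 ± 1.35 FPKM) and RSAD2 (6.2 ± 0.828 FPKM, rank 5941) were the lowest of the 10 in LPS cells. SAMD9 and RSAD2 overlapped. In LPS_ABS cells IFITM3 was again the highest, at 1115 ± 261 FPKM, followed by IFITM1 at 477 ± 135 FPKM and BST2 at 317 ± 53.7 FPKM. In ctrl cells IFITM3 stood at 630.1 ± 71.1 FPKM, and BST2 at 264 ± 15.6 FPKM and IFITM1 at 241 ± 31.6 FPKM did not differ beyond their spread. RSAD2 was the lowest of the 10 in both, at 1.37 ± 0.642 FPKM in LPS_ABS and 1.32 ± 0.381 FPKM in ctrl.

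Total counts per library ran from 38506162 to 41679412, and the lowest count of any effector in any library was 128 reads (RSAD2 in LPS_ABS 3), so counting error was smaller than the spread between libraries for all 10. The LPS_ABS libraries stood apart in base composition. Relative to the mean of all libraries, log2 counts changed per 10 points of transcript GC by 0.31 ± 0.07 in LPS_ABS, -0.15 ± 0.14 in LPS and -0.16 ± 0.02 in ctrl (SD, n = 3 each). The tests were therefore also run with each library's GC trend taken out (GC correction). Corrected values are given beside those for the effectors, the list counts and the listed genes named in the LPS_ABS comparisons, and the part of base composition in the results was not tested further. The 12 monocyte and macrophage markers, among them CD14, CD68 and CSF1R, were all detected, with a summed level of 1944 to 2154 CPM in LPS_ABS, 1799 to 1946 CPM in LPS and 1673 to 1788 CPM in ctrl. Markers of plasmacytoid dendritic cells, which make much interferon, summed to 1.97 to 2.74 CPM in LPS_ABS, 3.45 to 4.97 CPM in LPS and 4.16 to 4.8 CPM in ctrl (3 of 4 in the table), and the 1 T cell marker in the table reached at most 0.0243 CPM. B cell markers (3 of 4 in the table) summed to 9.69 to 13.3 CPM in LPS_ABS, 8.18 to 12.9 CPM in LPS and 7.23 to 7.97 CPM in ctrl. Fibroblast markers (5 of 6) summed to 3.43 to 5.67 CPM in LPS_ABS, 1.92 to 3.19 CPM in LPS and 2.11 to 3.87 CPM in ctrl. Endothelial (3 of 4) and epithelial (4 of 4) markers summed to at most 0.68 and 1.42 CPM in any library. The part of these markers in the results was not tested. The levels are of bulk RNA, in which fewer responding cells and less RNA per cell cannot be told apart.

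Libraries within a group were not equal for these genes. LPS_ABS 1 was the highest of the LPS_ABS libraries for 10 of 10 effectors and LPS 3 the highest of the LPS libraries for 10 of 10, while over all genes tested they were the highest of their group for 45.1% and 27.3%. In ctrl, library 1 was the highest for 9 of 10 effectors and for 31.9% of all genes. A replicate that was high for 1 effector was thus high for nearly all of them, and results that turn on 1 library are given with and without it.

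The IFITM proteins sit in cell and endosome membranes and hinder the fusion of enveloped viruses. The mRNA of IFITM1 and IFITM3 was raised by LPS, and the values for IFITM2 were close together in all groups. IFITM1 (gene ID 8519), found mainly at the cell surface, had 461, 267 and 285 CPM in LPS_ABS, 449, 522 and 823 CPM in LPS and 178, 142 and 146 CPM in ctrl. All LPS and LPS_ABS libraries were above all ctrl libraries, and LPS_ABS 1 lay just above the lowest LPS library, so these groups overlapped. The log2 fold change of IFITM1 in LPS against ctrl was 1.94 ± 0.24 (SE, with edgeR adjusted p = 4.2e-04). In LPS_ABS against ctrl it was 1.12 ± 0.24 (adjusted p = 0.00493), and 0.93 after GC correction (adjusted p = 0.0222). It fell in LPS_ABS against LPS (-0.82 ± 0.24, adjusted p = 0.0203, and -1.02 after GC correction). That call was lost without LPS_ABS 2 (edgeR adjusted p = 0.08), without LPS_ABS 3 (adjusted p = 0.0603) and without LPS 3 (adjusted p = 0.0953).

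IFITM3 (gene ID 10410), which acts in endosomes on viruses such as influenza, had 932, 558 and 675 CPM in LPS_ABS, 750.0, 839 and 1252 CPM in LPS and 414, 360.1 and 339 CPM in ctrl. Both LPS-treated groups were clear of ctrl, while LPS_ABS 1 was above LPS 1 and LPS 2. The gene was higher in LPS than in ctrl (1.35 ± 0.21, edgeR adjusted p = 0.00143) and in LPS_ABS than in ctrl (0.96 ± 0.21, adjusted p = 0.00529). After GC correction the latter difference was 0.61 (edgeR adjusted p = 0.0458). The difference of LPS_ABS from LPS was -0.39 ± 0.21 (edgeR adjusted p = 0.152) and missed the threshold, but passed it when the GC trend was taken out (-0.75, adjusted p = 0.0284) and in the fit without LPS_ABS 1 (-0.62, adjusted p = 0.028).

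IFITM2 (gene ID 10581), an endosomal protein close to IFITM3 in sequence, had 205, 162 and 171 CPM in LPS_ABS, 159, 166 and 182 CPM in LPS and 153, 157 and 143 CPM in ctrl. LPS libraries were all above ctrl libraries by a small margin, and LPS_ABS and LPS libraries overlapped. The log2 fold change was 0.16 ± 0.12 in LPS against ctrl (edgeR adjusted p = 0.421), 0.09 ± 0.12 in LPS_ABS against LPS (adjusted p = 0.596) and 0.25 ± 0.12 in LPS_ABS against ctrl (adjusted p = 0.128), so IFITM2 passed the test in 0 of the 3 comparisons. After GC correction the difference of LPS_ABS from ctrl was -0.05 (edgeR adjusted p = 0.794). The sign in LPS_ABS against LPS turned to -0.22 with GC correction, to -0.01 when libraries were scaled by their total counts and to -0.02 without LPS_ABS 1. The coding sequences of the family are near copies in GENCODE: IFITM2 and IFITM3 shared 93.9% of aligned bases, IFITM1 and IFITM3 87.5% and IFITM1 and IFITM2 85.4%. Between 5.93% and 12.91% of the 50-base stretches of 1 member occurred in another, and IFITM1 and IFITM2 overlap by 351 exonic bases on the same strand, so the division of reads among the 3 genes is uncertain.

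The MX proteins are dynamin-like GTPases that act on incoming viral cores. The mRNA of MX1 and MX2 was raised by LPS and lower again with ABS. MX1 (gene ID 4599), known for blocking influenza virus, had 278, 203 and 195 CPM in LPS_ABS, 318, 360.2 and 514 CPM in LPS and 111, 97.3 and 99.3 CPM in ctrl. The 3 groups did not overlap, with LPS highest, LPS_ABS between and ctrl lowest. MX1 was 3.88-fold higher in LPS than in ctrl (log2 fold change 1.96 ± 0.19, edgeR adjusted p = 1.1e-04), and 1.5% of all genes tested had a larger rise. It fell in LPS_ABS against LPS (-0.82 ± 0.18, adjusted p = 0.00801, and -1.02 after GC correction, adjusted p = 0.00832). It stayed above ctrl in LPS_ABS (1.14 ± 0.18, edgeR adjusted p = 0.00153, and 0.95 after GC correction, adjusted p = 0.00537). The calls without GC correction held without each of the 9 libraries.

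MX2 (gene ID 4600), known for acting on the capsid of HIV-1, had 153, 119 and 111 CPM in LPS_ABS, 207, 212 and 305 CPM in LPS and 94.8, 80.6 and 92 CPM in ctrl. Its groups were also separate and in the same order, with a narrower gap between LPS_ABS and ctrl than in MX1. MX2 was higher in LPS than in ctrl (1.44 ± 0.17, edgeR adjusted p = 3.3e-04) and fell in LPS_ABS against LPS (-0.92 ± 0.17, adjusted p = 0.00504, and adjusted p = 0.00832 after GC correction). In LPS_ABS against ctrl it was higher by 0.52 ± 0.17 (edgeR adjusted p = 0.0337), a call lost after GC correction (0.47, adjusted p = 0.0995) and without LPS_ABS 1, LPS_ABS 2 or any 1 ctrl library (adjusted p up to 0.121). MX1 and MX2 shared 71.2% of aligned coding bases but few of their 50-base stretches (0.56% of MX1 and 0.63% of MX2).

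RSAD2 (gene ID 91543) makes a chain-terminating nucleotide from CTP, and CMPK2 (gene ID 129607), a mitochondrial nucleotide kinase, can supply that CTP. RSAD2 had 8.52, 4.31 and 3.4 CPM in LPS_ABS, 19.3, 22.4 and 26.5 CPM in LPS and 5.85, 5.06 and 3.27 CPM in ctrl. The LPS libraries stood apart from all others, and the LPS_ABS and ctrl libraries overlapped. RSAD2 had the largest change of the 10 in both comparisons with LPS. It was 4.8-fold higher in LPS than in ctrl (2.26 ± 0.32, edgeR adjusted p = 7.7e-04). It fell in LPS_ABS against LPS (-2.07 ± 0.31, adjusted p = 0.00335, and -1.64 after GC correction, adjusted p = 0.00648), where 0.301% of all genes tested had a larger fall. Against ctrl, LPS_ABS differed by 0.19 ± 0.31 (edgeR adjusted p = 0.652), which turned to -0.29 without LPS_ABS 1, to -0.01 without ctrl 3 and to 0.68 with GC correction (adjusted p = 0.128). RSAD2 rested on 128 to 1029 reads per library, the fewest of the 10.

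CMPK2 had 100.2, 72.7 and 77 CPM in LPS_ABS, 84, 117 and 164 CPM in LPS and 63.3, 57.2 and 49.9 CPM in ctrl. Both LPS-treated groups were above ctrl, and LPS 1 lay among the LPS_ABS libraries. CMPK2 was 2.14-fold higher in LPS than in ctrl (1.10 ± 0.21, edgeR adjusted p = 0.00558). In LPS_ABS it stood between the others, -0.55 ± 0.21 from LPS (adjusted p = 0.0618) and 0.55 ± 0.21 from ctrl (adjusted p = 0.0617), and neither difference passed the test, with or without GC correction (-0.63 from LPS and 0.50 from ctrl). The fall against LPS did pass without LPS_ABS 1 (-0.70, edgeR adjusted p = 0.031), without LPS 1 (-0.75, adjusted p = 0.025) and with DESeq2 (-0.54, adjusted p = 0.0376). The rise against ctrl passed without LPS 1 (edgeR adjusted p = 0.0263), without LPS 3 (adjusted p = 0.0363) and with DESeq2 (adjusted p = 0.0351). Across the 9 libraries the log2 CPM of these divergent neighbours, each gene centred on its own mean, differed by 0.755 (root mean square). The closest pair among the effectors, MX1 and IFITM1, which lie on different chromosomes, differed by 0.099. These distances are without GC correction. The fitted GC trend in LPS_ABS against LPS was -0.46 for RSAD2 and 0.10 for CMPK2, but 0.21 for both MX1 and IFITM1. The part of this trend in the distances was not tested. GENCODE gives RSAD2 and CMPK2 an overlap of 14 exonic bases on opposite strands.

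SAMD9 and SAMD9L encode large cytosolic proteins that restrict poxviruses and slow translation. These 2 genes were the only ones of the 10 whose mean CPM, without GC correction, was lower in LPS_ABS than in ctrl. SAMD9 (gene ID 54809) had 28.3, 13.8 and 12.5 CPM in LPS_ABS, 51.2, 38 and 55.7 CPM in LPS and 32.2, 22.9 and 23.7 CPM in ctrl. The LPS libraries were the highest, LPS_ABS 2 and 3 were the lowest of all 9, and LPS_ABS 1 lay among the ctrl libraries. SAMD9 fell in LPS_ABS against LPS (-1.41 ± 0.28, edgeR adjusted p = 0.00588), and by less with the GC trend removed (-0.72, adjusted p = 0.0223). It was higher in LPS than in ctrl (0.88 ± 0.28, adjusted p = 0.0496), a call lost in 6 of the 9 fits that left out 1 library (without LPS_ABS 2, LPS 1, LPS 3 or any 1 ctrl library, adjusted p up to 0.169) and held after GC correction (0.88, adjusted p = 0.00297). LPS_ABS differed from ctrl by -0.53 ± 0.28 (edgeR adjusted p = 0.15), by -0.99 without LPS_ABS 1 (adjusted p = 0.00304) and by 0.16 after GC correction (adjusted p = 0.585), so that neither direction nor call was stable.

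SAMD9L (gene ID 219285), in which germline mutations are known to cause bone marrow failure, had 36.4, 12.3 and 11.1 CPM in LPS_ABS, 61.5, 61.3 and 80.0 CPM in LPS and 35.5, 23.8 and 28.7 CPM in ctrl. The LPS libraries were the highest, LPS_ABS 1 lay just above every ctrl library, and LPS_ABS 2 and 3 lay below them all. The coefficient of variation within LPS_ABS, 71.5%, was the widest of the 10 (12.5% to 50.4% in the others). SAMD9L fell in LPS_ABS against LPS (-1.76 ± 0.37, edgeR adjusted p = 0.00642), with -2.53 without LPS_ABS 1 and -1.20 after GC correction (adjusted p = 0.0189). It was higher in LPS than in ctrl (1.21 ± 0.36, adjusted p = 0.0416), a call lost without any 1 LPS library or any 1 ctrl library (adjusted p up to 0.141) and with DESeq2 (adjusted p = 0.0541). LPS_ABS differed from ctrl by -0.56 ± 0.36 (edgeR adjusted p = 0.239), by -1.32 without LPS_ABS 1 (adjusted p = 4.5e-04) and by 0.03 after GC correction. The transcripts of both genes are poor in GC, 36.0% in SAMD9 and 38.5% in SAMD9L, and 2.53% and 8.93% of genes with a GC value were lower. Their coding sequences shared 72.2% of aligned bases and no 50-base stretch.

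BST2 (gene ID 684) holds budding enveloped viruses such as HIV-1 at the cell surface. It had 414, 298 and 295 CPM in LPS_ABS, 330.0, 339 and 433 CPM in LPS and 270.0, 249.6 and 246 CPM in ctrl. Both LPS-treated groups were above ctrl, and they overlapped each other. BST2 was higher in LPS than in ctrl by the smallest margin of the 9 that passed (0.53 ± 0.15, edgeR adjusted p = 0.0376), a call lost without LPS 3 or any 1 ctrl library (adjusted p up to 0.176). LPS_ABS differed from LPS by -0.13 ± 0.15 (adjusted p = 0.528) and by -0.50 after GC correction (adjusted p = 0.0422). It differed from ctrl by 0.40 ± 0.15 (edgeR adjusted p = 0.0621), which passed without LPS_ABS 3 (adjusted p = 0.0334) and with DESeq2 (adjusted p = 0.0463) and was 0.05 after GC correction.

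**Figure D3:**
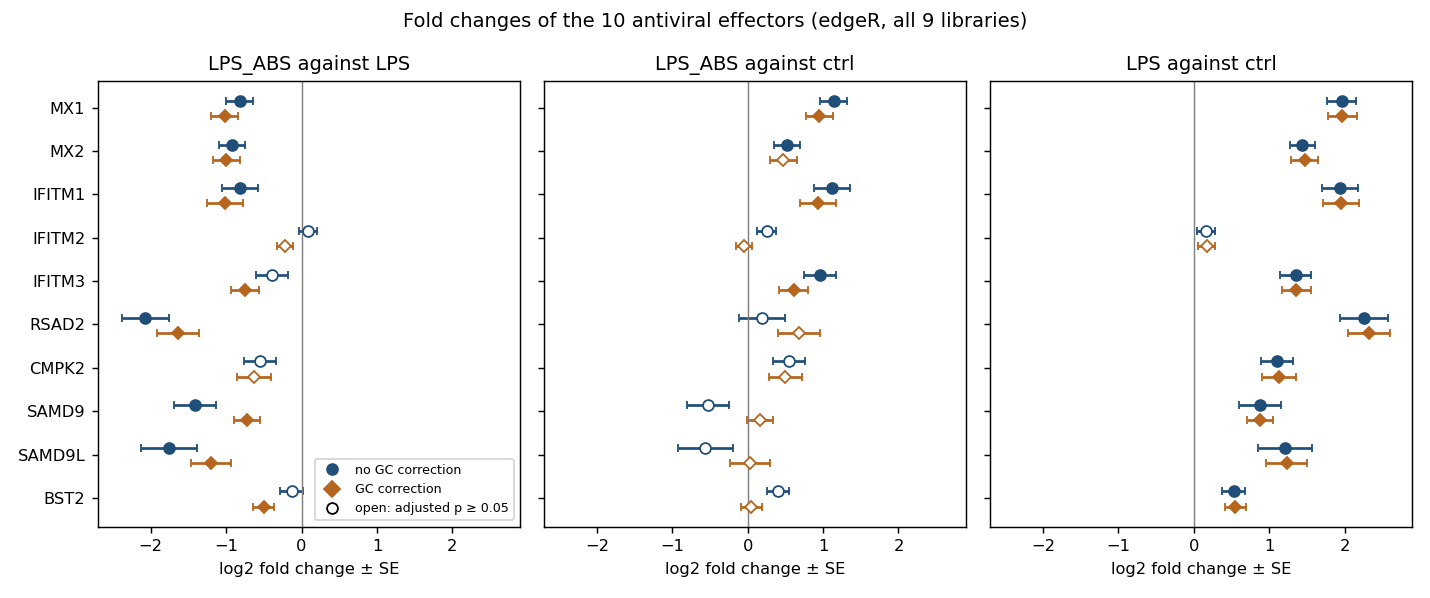
Log2 fold changes (horizontal axis, ± SE) of the 10 effectors in LPS_ABS against LPS, LPS_ABS against ctrl and LPS against ctrl, from edgeR on all 9 libraries; blue circles are without and brown diamonds with GC correction, and open symbols have an adjusted p of 0.05 or more. In LPS against ctrl both fits pass for 9 genes; in LPS_ABS against LPS 6 pass without and 8 with the correction, all of them lower.

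The correction moved the effectors by their base composition, and the 10 span much of the range. Across all genes the log2 fold change in LPS_ABS against LPS ran from a median of -0.74 in the lowest of 20 equal bins of transcript GC content to 0.45 in the highest. The fitted trend at each gene's GC content was -0.76 for SAMD9, -0.67 for SAMD9L and -0.46 for RSAD2, and 0.36 for IFITM3 and 0.37 for BST2 (56.9% and 57.3% GC). All 10 effectors lay on the lower side of the trend. With the trend taken out, 8 effectors fell in LPS_ABS against LPS, 0 rose, and CMPK2 (-0.63, edgeR adjusted p = 0.0785) and IFITM2 (-0.22, adjusted p = 0.208) did not pass; of all genes tested 9.65% then passed and 4.52% fell. The median log2 fold change of the 10 was then -0.88 in LPS_ABS against LPS and 0.48 in LPS_ABS against ctrl. Without LPS_ABS 1, LPS_ABS 2 or LPS_ABS 3, the corrected fit called 9, 3 and 5 effectors, all lower. Of the 12970 genes tested it then called 2789 without LPS_ABS 1, 637 without LPS_ABS 2 and a number between these without LPS_ABS 3. In LPS_ABS against ctrl the corrected fit called 3 effectors, all higher (MX1 at 0.95, adjusted p = 0.00537; IFITM1 at 0.93, adjusted p = 0.0222; IFITM3 at 0.61, adjusted p = 0.0458), and 13.4% of all genes passed, 8.07% as higher. Without LPS_ABS 1 it called only MX1. Over all genes the corrected fits without 1 LPS_ABS library called 716 to 2659 in this comparison. In LPS against ctrl the correction changed 0 of the 10 calls, and 21.2% of all genes passed, 11.5% as higher.

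**Figure D4:**
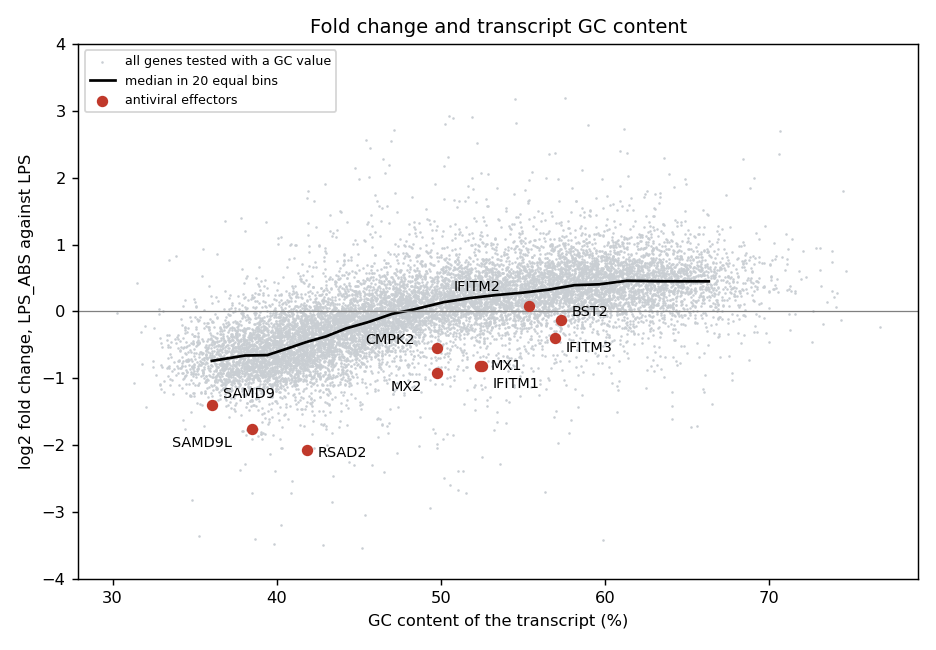
Log2 fold change in LPS_ABS against LPS (vertical axis, without correction) against the GC content of the transcript in percent, for 12694 genes (grey points, 6 outside the axis); the black line is the median in 20 equal bins, and red points are the 10 effectors. All 10 effectors lie below the line, which runs from -0.74 to 0.45.

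The groups were also compared by whether their libraries overlapped. The 3 LPS libraries were above the 3 ctrl libraries in 10 of 10 effectors, as in 19.9% of all genes tested. The 3 LPS_ABS libraries were below the 3 LPS libraries in 5 effectors (24.3% of all genes) and above the ctrl libraries in 7 (24.9% of all genes). Group means from low to high ran in the order ctrl, LPS_ABS, LPS in 7 effectors. The order was LPS_ABS, ctrl, LPS in SAMD9 and SAMD9L, and ctrl, LPS, LPS_ABS in IFITM2. The share of all genes in each order was not computed. Overlap and order are of CPM without GC correction. After correction LPS_ABS differed from ctrl by 0.16 in SAMD9 and 0.03 in SAMD9L. IFITM2 in LPS_ABS then differed by -0.22 from LPS and -0.05 from ctrl, and none of these differences passed the test.

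Other genes came closest to these profiles by the root mean square difference of centred log2 CPM over the 9 libraries, among 10633 genes with at least 100 counts on average. For MX1 they were IFITM1 (0.099), IFI6 (0.137) and ISG20 (0.171), where the median over these 10633 genes was 0.888. For RSAD2 they were IFI44 (0.153), IFI44L (0.276) and RADX (0.285), with a median of 1.147 over the genes compared. The profiles and means given here are without GC correction. IFI44 averaged 11.5 CPM in LPS_ABS, 41.2 CPM in LPS and 10.5 CPM in ctrl, and like RSAD2 it was then near the ctrl level in LPS_ABS. After GC correction LPS_ABS differed from ctrl by 0.73 for IFI44 (edgeR adjusted p = 0.0908) and by 0.68 for RSAD2 (adjusted p = 0.128). For IFITM3 they were LY6E (0.121), SHFL (0.171) and DHX58 (0.183), with a median of 0.694. LY6E averaged 284 CPM in LPS_ABS, 382 CPM in LPS and 127 CPM in ctrl. Within the 10, IFITM2 was closest to BST2 (0.171), IFITM3 to CMPK2 (0.192), and SAMD9 to SAMD9L (0.274), while IFITM2 and RSAD2 were farthest apart (1.077).

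Of the interferons themselves, IFNB1 (interferon beta) had 7, 6 and 1 reads in LPS_ABS, 1, 1 and 1 reads in LPS and 1, 5 and 0 reads in ctrl. IFNL1 (interferon lambda 1) had 0, 7 and 11 reads in LPS_ABS, 4, 1 and 7 in LPS and 8, 10 and 2 in ctrl. Both were too low to be tested, and a difference was not detectable at this depth.

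Genes of the signalling chain between interferon and these effectors were called in both directions. Of 23 listed genes of interferons, their receptors, kinases, STATs, IRFs and their inhibitors, 20 were tested. Those not tested were the interferons IFNB1 and IFNL1, and IFNA1, which was absent from the deposited tables. In LPS against ctrl 7 rose and 1 fell, 40% of the list beside 14.9% of all genes, with a median log2 fold change of 0.30. STAT2, a subunit of ISGF3, averaged 192 ± 37.9 CPM in LPS and 75.1 ± 9.18 CPM in ctrl (1.36 ± 0.16, edgeR adjusted p = 3.1e-04). IRF7, which amplifies interferon production (1.74), and USP18, which damps the receptor (1.43), also rose, and the receptor chain IFNAR2 was the 1 gene that fell (-0.51). In LPS_ABS against LPS 7 of these genes fell and 2 rose (45%, beside 35.6% of all genes), with a median of -0.26. After GC correction 6 fell and 0 rose (30%, beside 9.65% of all genes), with a median of -0.24. JAK2, a kinase of the interferon gamma receptor, averaged 10.7 ± 3.66 CPM in LPS_ABS and 23.7 ± 0.886 CPM in LPS (-1.15 ± 0.21, edgeR adjusted p = 0.00482, and -0.56 after GC correction). The rise of IRF3 (0.48) and the fall of the receptor chain IFNGR1 (-0.50) did not pass after GC correction, at 0.02 and 0.07. In LPS_ABS against ctrl 9 of the 20 rose and 3 fell (60%, beside 33.8% of all genes, median 0.40), with STAT2 at 1.07, IRF7 at 1.36, IRF1 at 0.72 and IFNGR1 at -0.87. After GC correction 3 rose, STAT2 (0.92), IRF7 (0.93) and IRF1 (0.49), and 0 fell (15%, beside 13.4% of all genes), the median was 0.10, and IFNGR1 was at -0.26. The total of 8 calls in LPS against ctrl was 5 without LPS 3 or without ctrl 3. Over all genes, calls there went from 1933 to 879 without LPS 3. The total of 9 in LPS_ABS against LPS was 5 without LPS 1 and 4 without LPS 3. Over all genes, calls there went from 4621 to 2373 without LPS 1. The total of 12 in LPS_ABS against ctrl was 7 without ctrl 2. Over all genes, leaving out 1 library gave 2367 to 4803 calls in that comparison, against 4388 with all libraries. With GC correction, LPS_ABS against LPS had 1 call without LPS_ABS 2 (637 over all genes). LPS_ABS against ctrl had 7 without LPS_ABS 3 (2659 over all genes).

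Most of the other listed interferon-stimulated genes passed the test as well. Of 28 tested, 27 rose in LPS against ctrl (96.4%, beside 14.9% of all genes), with a median log2 fold change of 1.55, and only the ligase HERC5 did not pass (1.15 ± 0.42, edgeR adjusted p = 0.0813). IFI27 (2.34), EPSTI1 (2.15), IFI6 (2.08) and the RNA-sensing synthetase OAS2 (1.44) had the smallest adjusted p-values. In LPS_ABS against LPS 22 fell and 0 rose (78.6%, beside 35.6% of all genes), with a median of -0.88, and after GC correction 25 fell (89.3%, beside 9.65%), with a median of -0.96. Those with the smallest adjusted p-values were HERC6 (-1.60), EPSTI1 (-1.31), and the partners DTX3L (-0.90) and PARP9 (-0.87), a ubiquitin ligase and a poly(ADP-ribose) polymerase family member. These 4 passed after GC correction too, with HERC6 at -1.48, EPSTI1 at -0.97, DTX3L at -0.63 and PARP9 at -0.54. Against ctrl, 14 rose and 0 fell in LPS_ABS (50%, beside 33.8% of all genes), with a median of 0.41, among them IFI27 (1.65), IFI6 (1.44), LGALS3BP (1.31) and LY6E (1.16). After GC correction 11 rose and 0 fell (39.3%, beside 13.4%), with a median of 0.60, IFI27 at 1.28, IFI6 at 1.11, LGALS3BP at 0.93 and LY6E at 0.74. The corrected fit called 8 without LPS_ABS 2 in LPS_ABS against LPS (637 over all genes). In LPS_ABS against ctrl it called 7 without LPS_ABS 1 and 6 without LPS_ABS 2 (716 over all genes in the latter). A list drawn up with earlier results of these data known is no independent evidence of its direction.

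Restriction factors outside these families block other steps of viral growth. Of 27 tested of 30 listed, 12 rose and 1 fell in LPS against ctrl (48.1%, beside 14.9% of all genes), with a median log2 fold change of 0.45. APOBEC3A and CH25H had too few reads to be tested. TRIM22, a ligase active against retroviruses, averaged 94.1 ± 14.2 CPM in LPS and 33 ± 4.22 CPM in ctrl (1.51 ± 0.20, edgeR adjusted p = 5.4e-04), and PLSCR1 (1.31) and SHFL (1.20) also rose, whereas the GTPase GBP2 fell (-0.87). In LPS_ABS against LPS 11 fell and 0 rose (40.7%, near the 35.6% of all genes), with a median of -0.35, and after GC correction 5 fell and 0 rose (18.5%, beside 9.65%), with a median of -0.16. TRIM22 fell to 36.7 ± 10.8 CPM in LPS_ABS, against 94.1 ± 14.2 CPM in LPS (-1.36 ± 0.20, adjusted p = 0.00313, and -0.92 after GC correction), and SAMHD1, which depletes dNTPs, fell by 0.67 on the log2 scale (-0.54 after GC correction). The falls of PLSCR1 (-0.88) and GBP3 (-1.16) did not pass after GC correction, at -0.28 and -0.71. Of the 27, 5 rose and 3 fell in LPS_ABS against ctrl (29.6%, near the 33.8% of all genes), with a median of 0.15: TRIM25 was higher (0.57) and SLFN11 (-0.81), GBP2 (-0.75) and GBP3 (-0.93) were lower. GC correction added calls here, with 9 higher and 2 lower (40.7%, beside 13.4% of all genes) and a median of 0.29. PLSCR1, at 0.42 without correction (edgeR adjusted p = 0.0617), was then higher by 1.06 (adjusted p = 9.3e-04), TRIM25 was at 0.44, SLFN11 at -0.46 and GBP2 at -0.63, and GBP3 no longer passed (-0.42). The total of 13 calls in LPS against ctrl was 7 to 8 without LPS 3 or any 1 ctrl library. Over all genes, calls there went from 1933 to 879 without LPS 3. The total of 11 in LPS_ABS against LPS was 7 without LPS_ABS 2 and 6 without LPS 3. Leaving out 1 library gave 2373 to 4935 calls over all genes there, against 4621. The total of 8 in LPS_ABS against ctrl was 4 to 5 without any 1 ctrl library. Over all genes, calls there went from 4388 to 2367 without ctrl 1. The corrected fit called 3 in LPS_ABS against LPS without LPS_ABS 2 (637 over all genes). In LPS_ABS against ctrl it called 7 without LPS_ABS 1 and 6 without LPS_ABS 2 (716 over all genes in the latter).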

How the data were processed

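RNA sequencing measured gene expression in PMA-treated THP-1 cells, with 3 libraries in each of 3 groups. Per the labels' protocols RNA was extracted with TRIzol; the TruSeq Stranded mRNA and VAHTS Universal V5 kits are both named, and which was used is unclear. The submitters' processing notes list R 3.2.0, DESeq2, HTSeq, HISAT2 and fastp. The aligner's build, the annotation and the strand setting are not given in the sources, so reads of antisense and overlapping genes cannot be told apart. The authors deposited raw read counts and FPKM values for 16222 genes. Each deposited FPKM value was a count divided by a fixed gene length and by the library total (the implied lengths differed between libraries by a relative 1.5e-13 or less). Every entry had a gene name.

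Counts were tested with edgeR 4.0.16 (R 4.3.3): filterByExpr on group (12970 genes, 99.985% of counts), TMM scaling, a quasi-likelihood F test on 3 group means over all 9 libraries (6 residual degrees of freedom), and Benjamini-Hochberg adjustment over all genes tested, with calls under 0.05. SE is the absolute log2 fold change divided by the root of F. Levels are TMM-scaled CPM or the authors' FPKM. The common coefficient of variation between libraries was 18.4%. Libraries of a group were not duplicates (lowest chi-square per degree of freedom 7.13). For GC correction, each library's log counts were centred on the mean of all 9, and a lowess curve (span 0.3) of these on transcript GC entered the model as an offset. GC was that of a gene's longest protein-coding transcript in GENCODE v29 and was found for 15772 of 16222 genes (97.23%) and 10 of 10 effectors. Scripts were tested on simulated counts.

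Members and gene lists were chosen with earlier results of these data known. All 10 members are named, with up to 4 genes of each list with the smallest adjusted p and the 3 genes most like MX1, RSAD2 and IFITM3. IFNAR2 and HERC5 were named after their values were seen. The values of 1 listed gene that this rule names are not reported here. Alternatives, 18 planned and 3 added after seeing the data (GC correction without each LPS_ABS library), covered scaling, filter, tool (DESeq2 1.42.0, limma 3.58.1), samples fitted, libraries left out, replicate block and GC. Promoter sequences are RefSeq's and were matched by gene ID.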

Additional observations from a re-analysis of the deposited data

How the results depend on the processing

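Without leaving out a library, the alternatives called 8 to 9 effectors in LPS against ctrl, 6 to 8 in LPS_ABS against LPS and 3 to 6 in LPS_ABS against ctrl. Leaving out 1 library gave 6 to 9, 5 to 8 and 3 to 5. Over all genes, 1933 genes were called in LPS against ctrl and 4621 in LPS_ABS against LPS, against 3236 and 3033 when only the groups compared were fitted. With GC correction they were 1252 in LPS_ABS against LPS and 1738 in LPS_ABS against ctrl (4388 without), and with the block as well 1476 and 1807. Leaving out 1 library gave 879 to 2723 calls in LPS against ctrl, 2373 to 4935 in LPS_ABS against LPS and 2367 to 4803 in LPS_ABS against ctrl. With GC correction and 1 LPS_ABS library left out (added after seeing the data), calls without LPS_ABS 1, 2 and 3 were 3259, 2787 and 3611 in LPS against ctrl, 2789, 637 and 769 in LPS_ABS against LPS, and 2256, 716 and 2659 in LPS_ABS against ctrl; effectors called were 9, 3 to 9 and 1 to 5. In LPS_ABS against LPS, IFITM2 reversed to -0.01 (total counts), -0.22 (GC), -0.23 (block with GC), and -0.33, -0.17 and -0.19 (GC without LPS_ABS 1, 2 and 3). Against ctrl, GC correction in LPS_ABS reversed IFITM2 (-0.05), SAMD9 (0.16) and SAMD9L (0.03), block with GC reversed IFITM2 (-0.06) and SAMD9 (0.15), and GC with 1 LPS_ABS library out reversed IFITM2 (-0.15 without LPS_ABS 1, -0.02 without LPS_ABS 3), BST2 (-0.11 without LPS_ABS 1), SAMD9 (0.27 without LPS_ABS 2, 0.20 without LPS_ABS 3) and SAMD9L (0.23 and 0.22 without the same 2). Leaving out 1 library without GC correction ranged from -0.02 to 0.16 (IFITM2) and -0.31 to 0.00 (BST2) in LPS_ABS against LPS, and from -0.29 to 0.44 (RSAD2) in LPS_ABS against ctrl. Scaling by total counts lowered the median of all genes by 0.10 in LPS_ABS against LPS and by 0.13 in LPS_ABS against ctrl, and the share of calls that were higher was 32.6% and 26.7%, against 47.2% and 43.8% with TMM. Of the lists, GC correction moved the calls among restriction factors from 11 to 5 in LPS_ABS against LPS and among signalling genes from 12 to 3 in LPS_ABS against ctrl. Only the groups compared gave 5 signalling genes in LPS_ABS against LPS, against 9. The cause of these changes was not tested. Correlations of same-numbered deviations were -0.035 to 0.203, and 5 of 9 libraries correlated best with their own number. At 3 libraries per group, these values cannot settle whether equal replicate numbers pair the libraries. With a replicate block and no GC correction, the effectors kept the calls of the main fit. The 1 added call was SAMD9, lower in LPS_ABS than in ctrl (-0.58, edgeR adjusted p = 0.042). How many of all genes that fit called is not given here, so the added call is only a description. Depth left IFNB1, IFNL1, APOBEC3A and CH25H untested and gave low listed genes wide errors (APOBEC3D, SE 0.52 in LPS_ABS against LPS).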
